A study of Mus musculus with 12 samples.

Results

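Cells make cholesterol from acetyl-CoA through mevalonate and squalene, take it up as lipoproteins that are broken down in lysosomes, and export it as lipid or oxysterol. The genes of these steps were followed here in mouse blood progenitors carrying the leukaemia fusion RUNX1-ETO: 18 enzymes of the mevalonate and sterol route, 5 genes of SREBP control, 4 of the liver X receptors (LXRs) and efflux, and 4 of intracellular transport and storage, 31 in all. They were chosen by gene symbol, with earlier results of these data known. The shares of all units given beside their counts therefore describe the members and do not test them. Of the 31, 25 had a probe under that symbol on the array, and 24 gave a signal above background on at least 3 of 12 arrays, out of 12031 units tested (11057 genes with a symbol and 974 unnamed probes). Acat2, Mvk, Fdft1, Nr1h2, Npc1 and Soat1 were not analysed here. The probe of Abca1, an exporter of cholesterol to lipoproteins, was above background on 0 of 12 arrays, with deposited signals of 46.5 to 84.4, and was not tested.

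Marrow of C57Bl/6J mice was depleted of lineage-positive cells, kept with serum, IL-3, SCF and FLT3L, and infected with the retroviral vector MigR1. RE cells received the vector with HA-tagged RUNX1-ETO, the fusion transcription factor of a recurrent translocation in acute myeloid leukaemia, and Mig cells received the vector alone. After 24 h of infection the cells were kept for 24 h with 10 ng/mL recombinant mouse GM-CSF (RE+GM and Mig+GM) or without it (RE and Mig), and GFP-positive, lineage-negative, c-Kit-positive cells were sorted after 48 h of fusion expression. Each of the 4 groups (RE+GM, RE, Mig+GM and Mig) had 3 arrays (Illumina Mouse Ref-8 v2.0). The viral vector, not the native gene, drove the fusion, and the controls shared the infection, the cytokines and the sort. Whether the 3 replicates of a group are separate mice or cultures is not stated, so the p-values rest on a spread between samples that may be technical.

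Sterol regulatory element-binding proteins (SREBPs) switch on most genes of cholesterol synthesis when sterol in the endoplasmic reticulum runs low. SCAP escorts them to the Golgi for cleavage, and INSIG proteins hold SCAP back when sterol is plentiful. LXRs sense oxysterols and raise exporters such as ABCA1 and ABCG1, and in mice, marrow progenitors lacking both exporters respond more strongly to IL-3 and GM-CSF. Dividing cells need cholesterol for new membrane.

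As a check of the labels, a probe for Runx1t1, the mouse gene for ETO, was above background on 6 of 6 arrays with the fusion and on 0 of 6 vector arrays. Its log2 levels were 8.29, 8.75 and 8.31 in RE+GM, 7.77, 8.01 and 8.19 in RE, 6.24, 6.16 and 6.05 in Mig+GM and 6.21, 6.10 and 6.15 in Mig cells, while the gene's other probe stayed between 6.00 and 6.35 throughout. Mean deposited signal per array ran from 318 to 597, and 48.8% to 60.9% of probes were above background. Replicates correlated across genes by 0.972 to 0.994. Progenitor markers were present (8 of 11 tested, mean log2 level 8.69 to 8.85 in RE+GM, 8.88 to 9.14 in RE, 8.62 to 8.87 in Mig+GM and 8.78 to 8.89 in Mig cells), but Kit, the sorted marker, was not analysed here. Under median scaling in place of quantiles, the split of all calls in RE against Mig moved to 26.3% higher, against 46.6% higher in the values given below, and moved the median change of all units to -0.11, against -0.04; its values are given where they change the call of a member.

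Expression of cholesterol synthesis genes was lower in cells with RUNX1-ETO, whether or not GM-CSF was present. Without GM-CSF, 13 of 24 members fell and 2 rose in RE against Mig cells (limma, adjusted p under 0.05), where 20.3% of all units fell, 17.7% rose and 38% changed in either direction. With GM-CSF, 12 fell and 3 rose in RE+GM against Mig+GM cells, where 23.5% of all units fell, 18.9% rose and 42.4% changed in either direction. The median member changed by -0.52 on the log2 scale without GM-CSF and by -0.43 with it, against -0.04 and -0.05 over all units. In both comparisons the same 11 members were called lower and the same 2 higher, where 17.1% of all units were lower in both and 14.3% higher in both. The comparisons share no array, but they are not independent, since they share an estimate of spread and same-numbered arrays correlated. That correlation was 0.61 to 0.69 between Mig+GM and Mig and 0.16 to 0.33 between RE+GM and RE.

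The 15 tested enzymes carried most of the falls. In RE against Mig cells 11 of 15 fell and none rose (median -0.65), and in RE+GM against Mig+GM cells 10 of 15 fell and none rose (median -0.51). All 15 fitted changes were below zero in RE against Mig cells, also under each of 20 alternative settings. Of all 12031 units, 6740 were below zero in that comparison and 6889 in RE+GM against Mig+GM cells. In RE+GM against Mig+GM cells all 15 were below zero too, but Tm7sf2, at -0.01, turned positive with median scaling, with the authors' normalized table and without 4 of the libraries taken singly, and Nsdhl without Mig+GM replicate 3. The falls in RE against Mig cells were larger under median scaling, with 13 of 15 called and a median of -1.07. That scaling also moved all units, of which 3458 of 12031 were called lower, against 2442 with quantiles. Hmgcs1 then changed by -1.0, Pmvk by -0.83, Fdps by -1.05, Sqle by -1.23 and Ebp by -1.07. In RE+GM against Mig+GM cells fewer were called under median scaling, 7 of 15 (median -0.51). Of all units 2351 were then called lower there, against 2825 with quantiles. Under the authors' normalization 8 of 15 were called there (median -0.42). Over the 20 alternatives the enzymes called lower ran from 10 to 13 without GM-CSF and from 7 to 12 with it. The mean log2 level over the 15 enzymes was 9.22 to 9.39 on RE+GM arrays, 8.94 to 9.14 on RE arrays, 9.83 to 9.93 on Mig+GM arrays and 9.76 to 9.82 on Mig arrays. No array with the fusion reached any array without it. With the replicate number as a block, which pairs these arrays, 13 enzymes fell in RE against Mig and 12 in RE+GM against Mig+GM cells. Over all 12031 units the block also gave more falls, 2773 and 3125, against 2442 and 2825 without it.

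**Figure D1:**
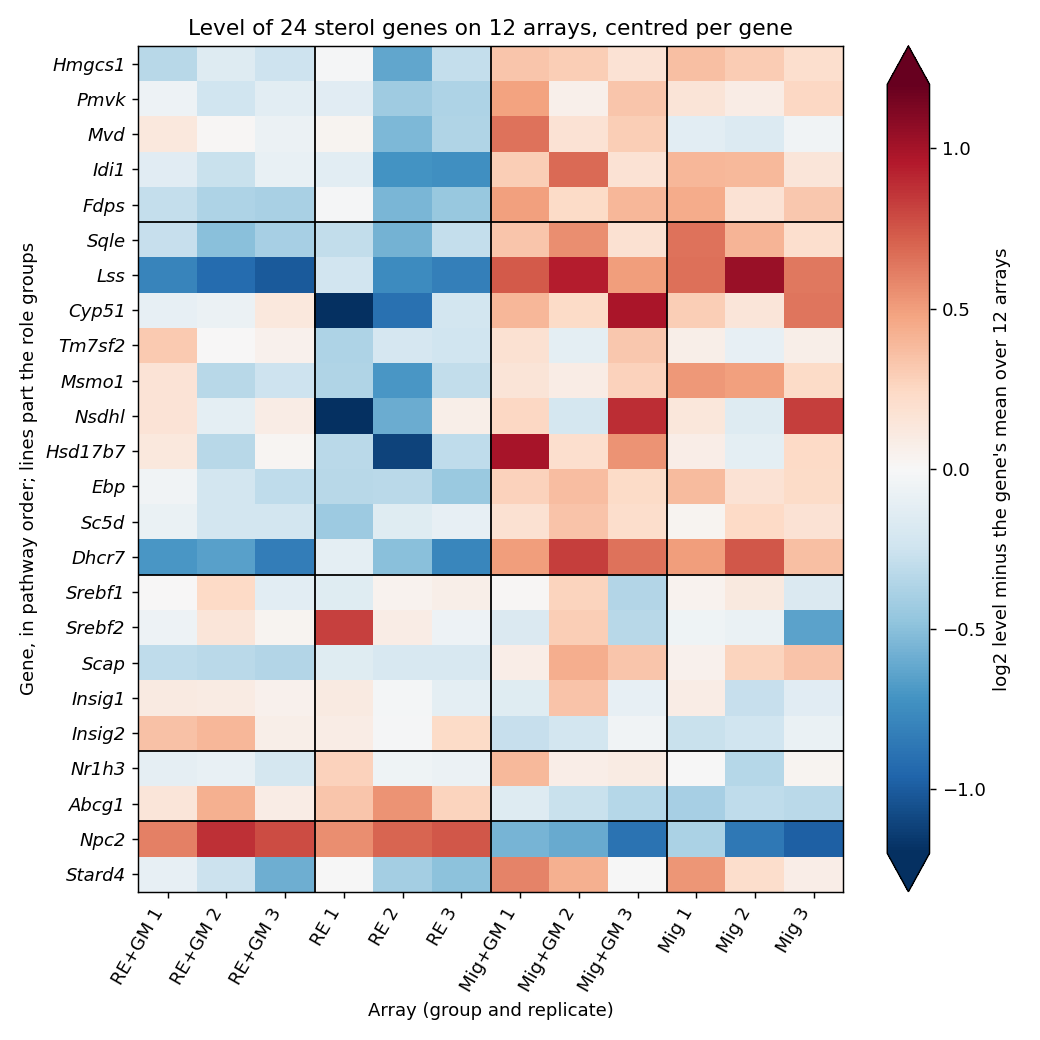
Log2 level of each of the 24 tested genes (rows, in pathway order) on each of 12 arrays (columns: RE+GM, RE, Mig+GM and Mig, replicates 1 to 3), as the difference from that gene's mean over 12 arrays; red is above and blue below, and colours saturate at the ends of the bar. Most enzyme rows are blue on the 6 arrays with RUNX1-ETO and red on the 6 without it, Npc2 and Abcg1 show the opposite, and Cyp51 and Nsdhl vary most among the 3 RE arrays.

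In the early mevalonate route, 4 of 5 tested enzymes fell in each comparison. Hmgcs1, the synthase that makes HMG-CoA, had log2 levels of 12.43, 12.61 and 12.51 in RE+GM cells, against 13.09, 13.06 and 12.93 in Mig+GM cells. Without GM-CSF it had 12.75, 12.14 and 12.48 in RE cells, against 13.13, 13.06 and 12.96 in Mig cells. Every array with the fusion lay below every array without it, and Hmgcs1 fell by 0.60 (SE 0.13, adjusted p = 0.00361) in RE against Mig and by 0.51 (SE 0.13, adjusted p = 0.00779) in RE+GM against Mig+GM cells. Under the authors' normalization the second of these falls was 0.34 in size and missed the threshold (adjusted p = 0.0720).

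Fdps, which builds the farnesyl diphosphate used for both sterols and protein prenylation, had 12.31, 12.22 and 12.20 in RE+GM cells, against 13.09, 12.82 and 12.99 in Mig+GM cells. It had 12.58, 12.05 and 12.14 in RE cells, against 13.04, 12.77 and 12.92 in Mig cells. The groups did not overlap, RE replicate 1 being the highest array with the fusion. Fdps was 1.65-fold lower with GM-CSF (log2 -0.72, SE 0.13, adjusted p = 0.00089) and 1.57-fold lower without it (log2 -0.65, SE 0.13, adjusted p = 0.00221).

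Idi1, the isomerase that makes dimethylallyl diphosphate, had 8.90, 8.77 and 8.94 in RE+GM cells, against 9.33, 9.71 and 9.20 in Mig+GM cells. In cells without GM-CSF its levels were 8.90, 8.32 and 8.30 in RE, against 9.43, 9.42 and 9.18 in Mig. Again no arrays overlapped, and the fall was 0.83 (SE 0.17, adjusted p = 0.00221) in RE against Mig and 0.55 (SE 0.17, adjusted p = 0.0216) in RE+GM against Mig+GM cells. The fall with GM-CSF lost its call without RE+GM replicate 2 (-0.50, adjusted p = 0.0753) or Mig+GM replicate 2 (-0.40, adjusted p = 0.0955), and under median scaling (adjusted p = 0.0513) or the authors' normalization (adjusted p = 0.0596).

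Pmvk, a kinase of mevalonate phosphate, had 8.44, 8.26 and 8.37 in RE+GM cells, against 8.98, 8.56 and 8.83 in Mig+GM cells. Its levels were 8.36, 8.08 and 8.13 in RE cells, against 8.66, 8.59 and 8.75 in Mig cells. The separation was small but complete in both pairs: Pmvk fell by 0.47 (SE 0.12, adjusted p = 0.00719) without GM-CSF and by 0.44 (SE 0.12, adjusted p = 0.00969) with it. Under the authors' normalization the change without GM-CSF was -0.35 (adjusted p = 0.0566). Mvd, the decarboxylase that follows Pmvk, did not pass (RE against Mig -0.18, adjusted p = 0.393; RE+GM against Mig+GM -0.35, adjusted p = 0.0874). With the replicate block, Mvd passed in the comparison with GM-CSF (adjusted p = 0.0284), as it did without RE replicate 1 (adjusted p = 0.0366), and under median scaling it passed without GM-CSF (-0.55, adjusted p = 0.0143).

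The largest falls were in the steps after squalene. Lss, the cyclase that makes lanosterol, had 8.52, 8.39 and 8.31 in RE+GM cells, against 10.05, 10.25 and 9.81 in Mig+GM cells. It had 9.08, 8.55 and 8.49 in RE cells, against 9.97, 10.35 and 9.95 in Mig cells. The groups were far apart: Lss was 3.10-fold lower with GM-CSF (log2 -1.63, SE 0.17, 95% interval -2.01 to -1.26, adjusted p = 1.36e-05) and 2.61-fold lower without it (log2 -1.38, SE 0.17, 95% interval -1.76 to -1.01, adjusted p = 7.12e-05). Among the 24 members these were the largest falls in either comparison.

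Dhcr7, the reductase of a final step to cholesterol, had 7.66, 7.70 and 7.53 in RE+GM cells, against 8.86, 9.19 and 9.0 in Mig+GM cells. Its levels were 8.24, 7.85 and 7.58 in RE cells, against 8.86, 9.11 and 8.72 in Mig cells. All arrays with the fusion were below all without it, RE replicate 1 being the closest. The gene was 2.62-fold lower with GM-CSF (log2 -1.39, SE 0.16, adjusted p = 2.76e-05) and 2.01-fold lower without it (log2 -1.01, SE 0.16, adjusted p = 0.000395).

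Cyp51, the demethylase of lanosterol, varied more. It had 8.21, 8.85 and 9.52 in RE cells, against 10.03, 9.88 and 10.38 in Mig cells, a 2.36-fold fall (log2 -1.24, SE 0.28, adjusted p = 0.00447). With GM-CSF it had 9.64, 9.67 and 9.87 in RE+GM cells, against 10.14, 9.97 and 10.72 in Mig+GM cells. Those groups did not overlap either, but the difference of -0.55 (SE 0.28, 95% interval -1.17 to 0.07) did not pass (adjusted p = 0.150); with the replicate block it did (adjusted p = 0.0278). Msmo1, an oxidase of sterol methyl groups, showed a like pattern. It had 10.49, 10.15 and 10.56 in RE cells, against 11.38, 11.35 and 11.08 in Mig cells, and fell by 0.87 (SE 0.15, adjusted p = 0.000651). With GM-CSF its levels of 11.02, 10.52 and 10.60 in RE+GM cells overlapped the 11.01, 10.95 and 11.13 of Mig+GM cells (-0.31, SE 0.15, adjusted p = 0.113), though the difference passed without RE+GM replicate 1 (-0.47, adjusted p = 0.0211). The RUNX1-ETO effect with GM-CSF minus that without it did not pass for either gene: it was 0.69 for Cyp51 (95% interval -0.19 to 1.57, adjusted p = 0.645) and 0.55 for Msmo1, whose interval before adjustment lay above zero (95% interval 0.09 to 1.01, adjusted p = 0.420).

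Sqle, the epoxidase of squalene, Ebp, a sterol isomerase, and Sc5d, a desaturase, fell in both comparisons. For Sqle the change was -0.80 (adjusted p = 0.000600) in RE against Mig and -0.75 (adjusted p = 0.000748) in RE+GM against Mig+GM cells. A dimmer Sqle probe changed by -1.48 (adjusted p = 0.0494) and -0.39 (adjusted p = 0.623), and the mean of both probes missed the threshold with GM-CSF (-0.57, adjusted p = 0.101). At an offset of 16 the changes of Sc5d, a dim probe, were -0.61 and -0.66. Ebp changed by -0.63 (adjusted p = 0.000224) and -0.48 (adjusted p = 0.00109; under median scaling 0.0536), and Sc5d by -0.37 (adjusted p = 0.0141; without Mig replicate 2 0.0580) and -0.42 (adjusted p = 0.00617). Hsd17b7, a ketone reductase of the same route, changed by -0.64 (adjusted p = 0.0472) in RE+GM against Mig+GM and by -0.65 in RE against Mig cells (adjusted p = 0.0510). With the replicate block both passed (adjusted p = 0.00202 and 0.00238). Under median scaling the first did not pass (-0.61, adjusted p = 0.108) and the second did (-1.03, adjusted p = 0.0110). Without the block the call with GM-CSF was the least firm among the enzymes, and it was lost in 10 of 20 alternatives, among them those without any RE+GM array, Mig+GM replicate 1 or 3, or any Mig array (adjusted p up to 0.183). The call without GM-CSF was also gained at a normexp offset of 16 (adjusted p = 0.0474), with the stricter filter on dim probes (0.0466) and without RE replicate 1 (adjusted p = 0.0398), RE replicate 3 (0.0377), Mig+GM replicate 1 (0.0340) or Mig+GM replicate 2 (0.0401).

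Tm7sf2 and Nsdhl did not pass. Tm7sf2, a reductase of a double bond in the sterol ring, changed by -0.28 (adjusted p = 0.0950) in RE against Mig and by -0.01 (adjusted p = 0.971) in RE+GM against Mig+GM cells. The brightest of 4 Nsdhl probes, for a dehydrogenase acting with Msmo1 and Hsd17b7, changed by -0.89 (SE 0.36, adjusted p = 0.0717; with the replicate block 0.0119; without RE replicate 3 0.0169) and -0.26 (adjusted p = 0.622). Its RE levels were 6.49, 7.24 and 7.90 and its Mig levels 7.97, 7.68 and 8.66. It had 8.0, 7.71 and 7.92 in RE+GM cells, against 8.08, 7.62 and 8.72 in Mig+GM cells. These groups overlapped. Low values on RE replicate 1 and high values on the replicate 3 arrays of RE, Mig+GM and Mig recurred in 2 further Nsdhl probes, in the dimmer Sqle probe and in Cyp51. The remaining Nsdhl probe was steadier and changed by -0.34 (adjusted p = 0.0507) in RE against Mig and by -0.46 (adjusted p = 0.00988) in RE+GM against Mig+GM cells, where 36% and 40.9% of 16262 probes were called.

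**Figure D2:**
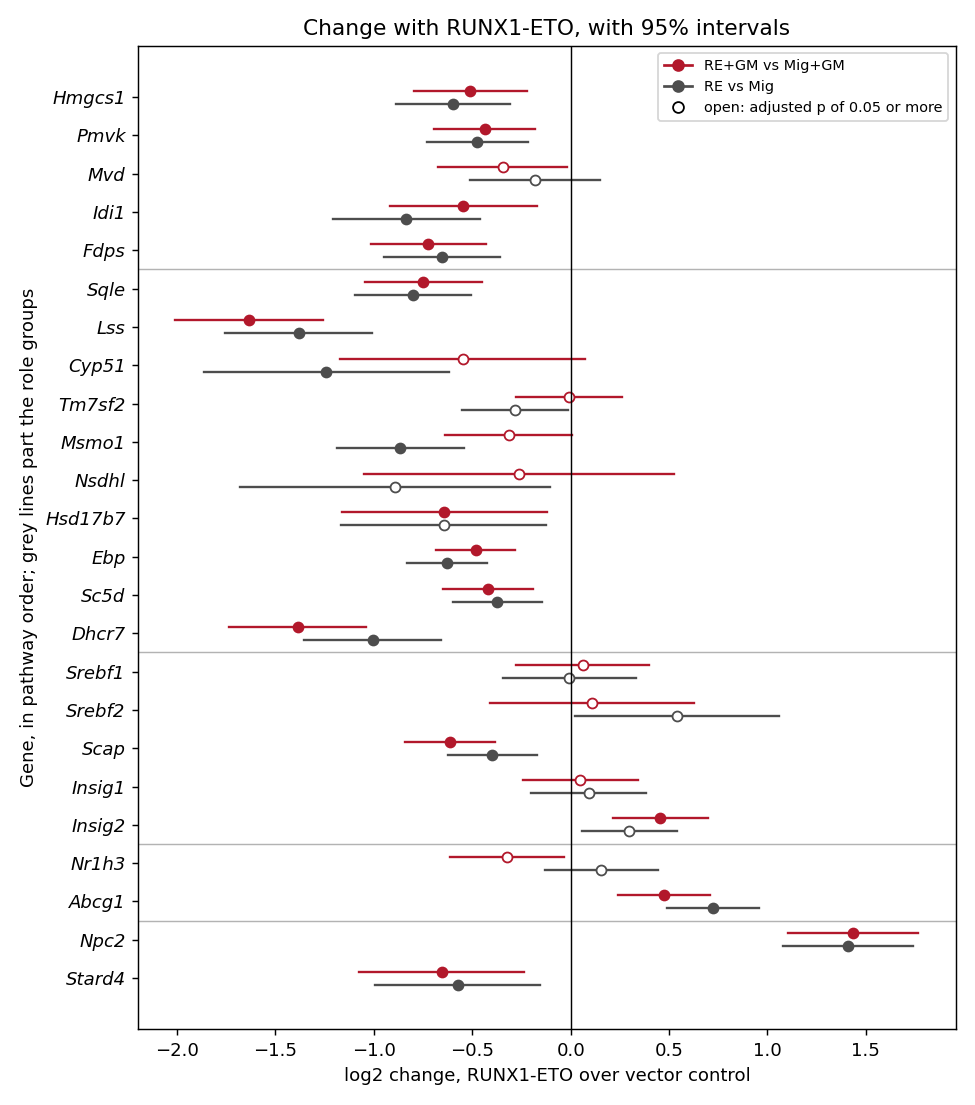
Log2 change of each of the 24 tested genes with RUNX1-ETO, RE+GM against Mig+GM (red) and RE against Mig (grey), with 95% intervals from the limma model (3 arrays per group); filled points have an adjusted p under 0.05. The enzymes lie left of zero, with Lss and Dhcr7 farthest, while Npc2 (1.44 and 1.41) and Abcg1 (0.47 and 0.72) lie to the right.

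The start-site regions of the enzymes, to which SREBPs bind together with NF-Y and Sp1, are shown for genes that fell and, as a contrast, for Npc2, which rose. RefSeq (GRCm38.p6) gives 300-base windows, each 250 bases before to 50 after an annotated start, for 15 of the 18 enzymes (18 windows, Fdps, Sqle and Fdft1 having none); windows are read on the gene's strand, and motifs were searched on both strands. Capitals mark CCAAT (the NF-Y box, which reads ATTGG on the other strand) and, in Hmgcs1, TCACCCCAC, a match to the sterol element searched as TCACNCCAC. The windows are chr13:119690101-119690400 (plus strand) for Hmgcs1, chr10:76531355-76531654 (plus strand) for Lss, chrX:8193463-8193762 (minus strand) for Ebp, chr5:4104648-4104947 (minus strand) for Cyp51 and chr12:84773063-84773362 (minus strand) for Npc2.
Hmgcs1: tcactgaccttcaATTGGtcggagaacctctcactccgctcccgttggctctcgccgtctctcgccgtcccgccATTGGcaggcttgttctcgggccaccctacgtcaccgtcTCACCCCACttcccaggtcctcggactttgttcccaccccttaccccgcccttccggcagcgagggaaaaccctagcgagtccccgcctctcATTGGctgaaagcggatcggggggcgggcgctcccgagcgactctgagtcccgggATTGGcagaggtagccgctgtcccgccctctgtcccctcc
Lss: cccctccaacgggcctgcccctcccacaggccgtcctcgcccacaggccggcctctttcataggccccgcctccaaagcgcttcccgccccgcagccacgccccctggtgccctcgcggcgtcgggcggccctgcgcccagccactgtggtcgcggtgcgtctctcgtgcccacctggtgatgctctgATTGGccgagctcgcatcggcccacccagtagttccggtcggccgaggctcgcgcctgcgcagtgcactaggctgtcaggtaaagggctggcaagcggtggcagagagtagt
Ebp: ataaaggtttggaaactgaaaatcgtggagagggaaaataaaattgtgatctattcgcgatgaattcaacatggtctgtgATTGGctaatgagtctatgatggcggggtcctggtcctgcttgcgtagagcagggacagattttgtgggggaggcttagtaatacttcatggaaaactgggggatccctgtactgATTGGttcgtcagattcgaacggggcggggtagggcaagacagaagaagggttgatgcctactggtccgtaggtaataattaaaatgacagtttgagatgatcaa
Cyp51: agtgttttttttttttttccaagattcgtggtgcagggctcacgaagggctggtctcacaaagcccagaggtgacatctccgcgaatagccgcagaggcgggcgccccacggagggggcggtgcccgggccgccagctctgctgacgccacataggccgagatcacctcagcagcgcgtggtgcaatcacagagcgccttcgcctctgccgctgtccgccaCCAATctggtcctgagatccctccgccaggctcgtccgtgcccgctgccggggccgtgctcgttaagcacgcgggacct
Npc2: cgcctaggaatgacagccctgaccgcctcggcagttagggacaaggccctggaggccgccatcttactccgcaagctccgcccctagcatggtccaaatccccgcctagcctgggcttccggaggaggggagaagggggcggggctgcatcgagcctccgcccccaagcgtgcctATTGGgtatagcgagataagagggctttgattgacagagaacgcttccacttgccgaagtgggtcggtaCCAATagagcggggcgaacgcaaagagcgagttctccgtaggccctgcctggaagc
CCAAT was found in 14 of 18 enzyme windows (77.8%, in 14 of 15 genes), against 37.4% of all 32851 windows, and GGGCGG, the Sp1 box, in 15 of 18 (83.3%), against 35.7%. Windows were counted for 10 of the other members, and held CCAAT in 7 of 16 (43.8%) and GGGCGG in 11 of 16 (68.8%). Abcg1, Npc1 and Stard4 were left out of that count. The sterol element as spelled was in 1 of 18 enzyme windows, 137 bases before the Hmgcs1 start, and in 1.24% of all windows. Npc2, which rose, also held CCAAT, at 6 and 75 bases before its start. The windows of Mvd, Tm7sf2 and Nsdhl, enzymes called in neither RUNX1-ETO comparison, held both CCAAT and GGGCGG. A match describes the letters and is not evidence of binding, and no overlap between motifs was removed.

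Among the genes that control SREBPs, Scap fell in both comparisons. In RE against Mig cells 1 of 5 fell and none rose, and in RE+GM against Mig+GM cells 1 fell and 1 rose, counts near the shares of all units (20.3% and 23.5% lower, 17.7% and 18.9% higher). Scap, the SREBP escort, had 7.88, 7.85 and 7.83 in RE+GM cells, against 8.26, 8.62 and 8.52 in Mig+GM cells. It had 8.04, 7.98 and 7.99 in RE cells, against 8.24, 8.45 and 8.52 in Mig cells. The arrays with the fusion were tightly grouped and all below the rest, and Scap fell by 0.61 (SE 0.10, adjusted p = 0.000460) with GM-CSF and by 0.40 (SE 0.10, adjusted p = 0.00933) without it. Under median scaling the change without GM-CSF was -0.72 (adjusted p = 0.00195).

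Insig2, which retains SCAP in the endoplasmic reticulum, had 8.46, 8.50 and 8.18 in RE+GM cells, against 7.83, 7.89 and 8.06 in Mig+GM cells. It had 8.20, 8.09 and 8.33 in RE cells, against 7.84, 7.86 and 8.03 in Mig cells. The arrays did not overlap in either pair, and Insig2 rose by 0.46 (SE 0.11, adjusted p = 0.00526) in RE+GM against Mig+GM cells. The difference of 0.30 in RE against Mig cells did not pass (adjusted p = 0.0525), passed under the authors' normalization (adjusted p = 0.00681), with the mean of the gene's probes (adjusted p = 0.0309) and without RE+GM replicate 3 (0.0365), RE replicate 2 (0.0469), Mig+GM replicate 3 (0.0495) or Mig replicate 3 (0.0498), and was -0.00 under median scaling. With the mean of the gene's probes the rise with GM-CSF was 0.29 (adjusted p = 0.0272), and its other kept probe changed by 0.12 (adjusted p = 0.357) with GM-CSF and by 0.28 (adjusted p = 0.0410) without it.

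Srebf1 and Srebf2, the SREBP genes themselves, and Insig1, an SREBP target that feeds back on SCAP, did not pass in either comparison. Srebf2 had 9.92, 9.18 and 9.04 in RE cells, against 9.04, 9.02 and 8.46 in Mig cells (0.54, SE 0.24, adjusted p = 0.0964). With the replicate block it passed (adjusted p = 0.0467), as it did without RE replicate 3 (adjusted p = 0.0464), while under median scaling the change was 0.15 (adjusted p = 0.691). RE replicate 1 stood above the other RE arrays, and the groups overlapped. With GM-CSF Srebf2 had 9.04, 9.24 and 9.13 in RE+GM cells, against 8.93, 9.40 and 8.77 in Mig+GM cells (0.11, adjusted p = 0.772). Srebf1 changed by -0.01 (95% interval -0.35 to 0.33) in RE against Mig and by 0.06 (95% interval -0.28 to 0.40) in RE+GM against Mig+GM cells. The brightest Insig1 probe changed by 0.09 (95% interval -0.20 to 0.38) and 0.05 (95% interval -0.24 to 0.34), and by -0.32 (adjusted p = 0.253) without GM-CSF under median scaling. The gene's other 2 kept probes changed by -0.23 (adjusted p = 0.221) and -0.34 (adjusted p = 0.0460) without GM-CSF, so that probes of Insig1 disagreed.

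Abcg1, which exports cholesterol to high-density lipoprotein and is an LXR target, rose with RUNX1-ETO. It had 7.14, 7.42 and 7.08 in RE+GM cells, against 6.83, 6.73 and 6.65 in Mig+GM cells. It had 7.33, 7.53 and 7.26 in RE cells, against 6.59, 6.69 and 6.66 in Mig cells. The groups did not overlap, and Abcg1 was 1.65-fold higher without GM-CSF (log2 0.72, SE 0.11, adjusted p = 0.000243) and 1.39-fold higher with it (log2 0.47, SE 0.11, adjusted p = 0.00346). The LXR gene Nr1h3 was near background, above it on 0 of 3 RE+GM, 1 of 3 RE, 2 of 3 Mig+GM and 0 of 3 Mig arrays. Its difference did not pass in RE against Mig (0.16, adjusted p = 0.403) or in RE+GM against Mig+GM cells (-0.32, adjusted p = 0.0706; with the replicate block 0.0302; under median scaling 0.0491; under the authors' normalization 0.0479; without RE replicate 1 0.0446; without Mig replicate 2 0.0485).

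Npc2, which binds cholesterol inside lysosomes and hands it on for release, was the member that rose most. It had 11.71, 11.99 and 11.89 in RE+GM cells, against 10.55, 10.50 and 10.22 in Mig+GM cells. Its levels were 11.66, 11.81 and 11.85 in RE cells, against 10.73, 10.24 and 10.12 in Mig cells. All 6 arrays with the fusion were well above all 6 without it. Npc2 was 2.71-fold higher with GM-CSF (log2 1.44, SE 0.15, adjusted p = 1.40e-05) and 2.65-fold higher without it (log2 1.41, SE 0.15, adjusted p = 2.59e-05). Under median scaling the rise without GM-CSF was 0.95 (adjusted p = 0.00666).

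Stard4, a cytosolic sterol carrier and SREBP target, fell like the enzymes. It had 9.74, 9.58 and 9.25 in RE+GM cells, against 10.44, 10.27 and 9.84 in Mig+GM cells. It had 9.84, 9.44 and 9.35 in RE cells, against 10.38, 10.05 and 9.93 in Mig cells. Neither pair overlapped, and replicate 1 was the highest array in all 4 groups. Stard4 changed by -0.65 (SE 0.19, adjusted p = 0.0152; with the replicate block 0.000111) with GM-CSF and by -0.57 (SE 0.19, adjusted p = 0.0331; with the replicate block 0.000352) without it. Without the block the call with GM-CSF was lost without RE+GM replicate 3 (adjusted p = 0.0698), Mig+GM replicate 1 (0.0634) or Mig+GM replicate 2 (0.0509), and the call without GM-CSF without RE replicate 2 (0.0991), RE replicate 3 (0.107), Mig replicate 1 (0.123) or Mig replicate 2 (0.0617). The change without GM-CSF was -0.97 under median scaling (adjusted p = 0.00413).

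Counted by overlap, 18 of 24 members had groups that did not overlap in RE against Mig cells (3 above, 15 below), where 46% of all units did not overlap (21.1% above, 24.9% below). The same counts, 3 above and 15 below, held in RE+GM against Mig+GM cells, where 52.6% of all units did not overlap (22.9% above, 29.8% below).

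**Figure D3:**
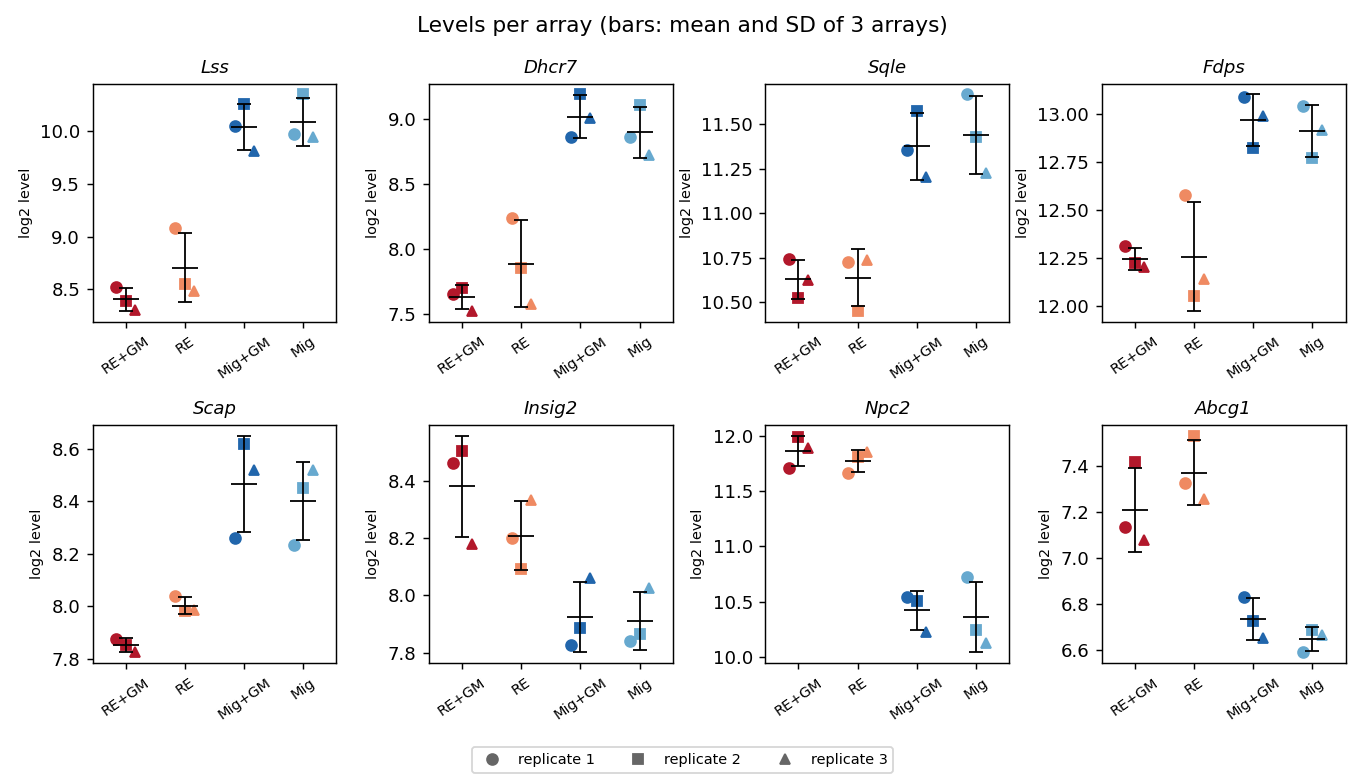
Log2 level of 8 sterol genes on each array in RE+GM, RE, Mig+GM and Mig cells; points are arrays, with symbols for replicates 1 to 3, and bars show mean and SD (n = 3), on an axis of its own for each gene. Lss, Dhcr7, Sqle, Fdps and Scap are lower, and Insig2, Npc2 and Abcg1 higher, on the 6 arrays with RUNX1-ETO than on the 6 without it, though under median scaling the Insig2 difference in RE against Mig cells was -0.00.

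None of the 24 tested members passed the test for a change with GM-CSF in the main fit. In RE+GM against RE cells 0 of 24 members passed (limma; 2 at an unadjusted p under 0.05, Cyp51 and Tm7sf2, where 18% of all units did), against 2.26% of all units called, 1.9% higher. In Mig+GM against Mig cells 0 of 24 passed (2 at an unadjusted p under 0.05, Mvd and Nr1h3, where 5.34% of all units did), against 0.00831% of all units called. The effect of the fusion with GM-CSF minus that without it differed from zero for 0 of 24 members (2 at an unadjusted p under 0.05, Msmo1 and Nr1h3, where 9.3% of all units did), against 0.266% of all units. Under median scaling the median of that difference over all units was 0.15, against -0.03, and over the 15 enzymes it was 0.46, against 0.05, with 1 of 15 below zero. The enzymes' median in RE+GM against RE cells was then 0.47, against 0.18, with no member called.

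Among the tested probes, 1 per gene, the largest GM-CSF difference was that of Cyp51 in RE cells (the dimmer Sqle probe changed by 1.16, adjusted p = 0.298), where RE+GM levels of 9.64, 9.67 and 9.87 stood above RE levels of 8.21, 8.85 and 9.52. The change of 0.87 (SE 0.28, 95% interval 0.25 to 1.49) did not pass (adjusted p = 0.145), passed with the replicate block (adjusted p = 0.0230) and passed without RE replicate 3 (1.20, adjusted p = 0.0167). Hsd17b7 (0.52, adjusted p = 0.281) also passed with the block (adjusted p = 0.0488), so that 2 members rose with GM-CSF in that paired fit. Tm7sf2 changed by 0.39 (SE 0.12, adjusted p = 0.134; with the block 0.0712), and its RE+GM levels of 7.44, 7.13 and 7.18 lay above RE levels of 6.76, 6.93 and 6.89. In control cells the largest change was 0.51 for Hsd17b7 (adjusted p = 0.919), followed by 0.48 for Mvd (95% interval 0.15 to 0.81, adjusted p = 0.734), whose Mig+GM levels of 9.56, 9.08 and 9.20 all exceeded Mig levels of 8.79, 8.75 and 8.87. The strongly lowered Lss changed by -0.30 (95% interval -0.68 to 0.07) in RE+GM against RE and by -0.05 (95% interval -0.42 to 0.32) in Mig+GM against Mig cells. Npc2 changed by 0.09 (95% interval -0.24 to 0.42) and 0.06 (95% interval -0.27 to 0.39). Groups did not overlap for 5 of 24 members in RE+GM against RE cells, 3 above and 2 below, where 22.8% of all units did not overlap (9.07% above, 13.7% below). In Mig+GM against Mig cells they did not overlap for 2 of 24, both above, where 9.76% of all units did not overlap (4.6% above, 5.15% below).

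**Figure D4:**
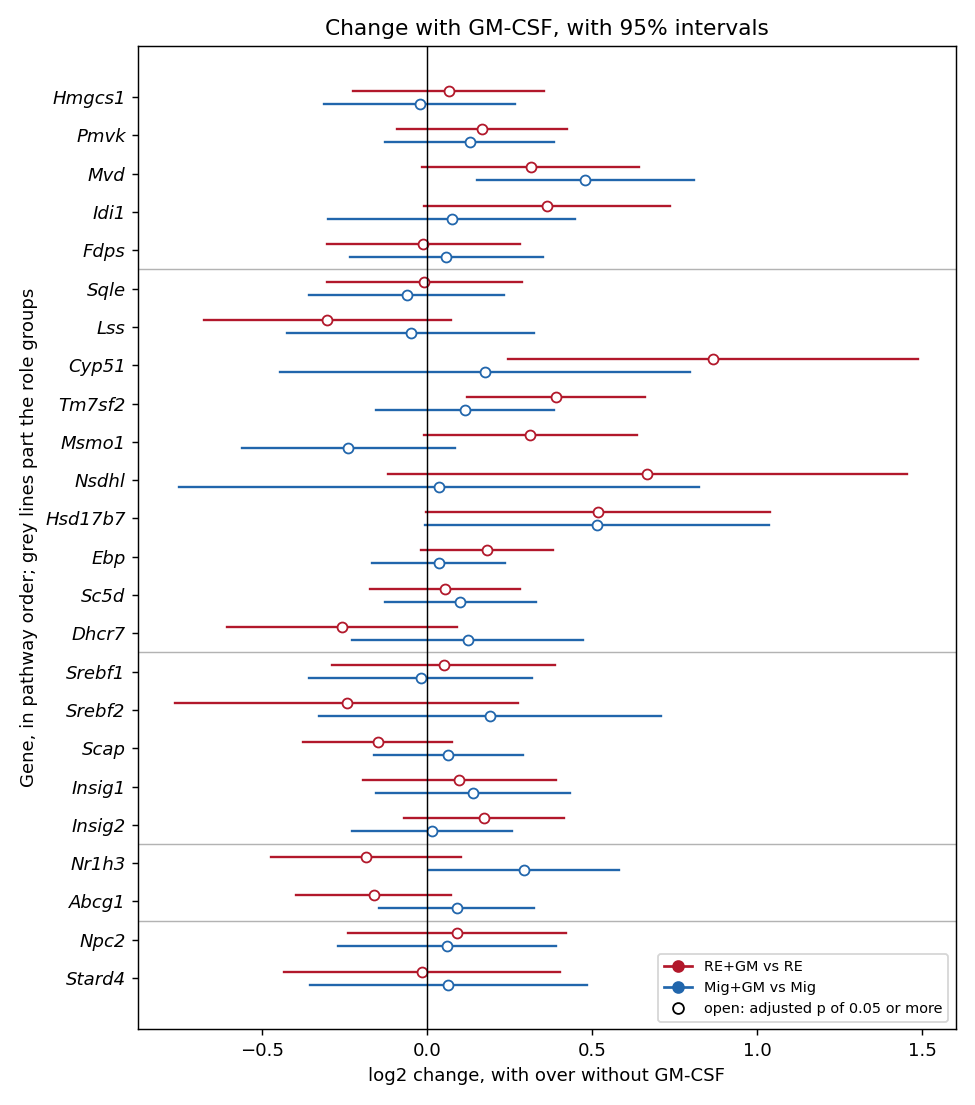
Log2 change of each of the 24 tested genes with GM-CSF, RE+GM against RE (red) and Mig+GM against Mig (blue), with 95% intervals from the limma model (3 arrays per group). All points are open (adjusted p of 0.05 or more), and Cyp51 in cells with the fusion lies farthest from zero, at 0.87.

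Further genes of the same processes were read from 5 lists, whose counts stand against 20.3% of all units lower and 17.7% higher in RE against Mig, and 23.5% lower and 18.9% higher in RE+GM against Mig+GM cells. Of 14 other sterol and isoprenoid genes 8 were tested, and in each RUNX1-ETO comparison 3 fell (Lbr, Tmem97 and Coq2) and 1 rose (Cyb5r3). Lbr, a nuclear envelope protein that catalyses the same reduction as Tm7sf2, had 11.48, 11.11 and 11.10 in RE+GM cells, against 12.81, 12.75 and 12.54 in Mig+GM cells. The fall was 1.47 (SE 0.14, adjusted p = 6.77e-06) with GM-CSF and 1.06 (SE 0.14, adjusted p = 0.000113) without it. Tmem97, a sterol-binding membrane protein, had 10.42, 10.18 and 10.07 in RE+GM cells, against 11.54, 11.79 and 11.74 in Mig+GM cells. It fell by 1.47 (SE 0.13, adjusted p = 3.79e-06) with GM-CSF and by 1.11 (SE 0.13, adjusted p = 4.26e-05) without it. Cyb5r3, a reductase that feeds electrons to sterol and fatty acid enzymes, rose by 1.67 (SE 0.12, adjusted p = 8.83e-07) in RE+GM against Mig+GM and by 0.85 (SE 0.12, adjusted p = 0.000156) in RE against Mig cells, where it missed the threshold under median scaling (0.42, adjusted p = 0.0959) and with the mean of its probes (0.37, adjusted p = 0.111). It also rose with GM-CSF in RE cells (0.62, adjusted p = 0.0202), a call that was lost without any of the 3 RE+GM arrays, RE replicate 1 or RE replicate 2 (adjusted p = 0.0577 to 0.0842); with the mean of its probes that rise was 0.95 (adjusted p = 0.0140).

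Of 15 tested SREBP targets of fatty acid synthesis (16 listed), 7 fell and none rose in RE against Mig cells, and 7 fell and 1 rose in RE+GM against Mig+GM cells (medians -0.47 and -0.31). Acsl3, an acyl-CoA synthetase of lipid droplets, had 7.34, 7.45 and 7.34 in RE+GM cells, against 8.84, 8.85 and 8.96 in Mig+GM cells. Its levels were 7.36, 7.14 and 7.53 in RE cells, against 8.72, 9.06 and 9.09 in Mig cells. The arrays with the fusion were all more than 1 unit lower, and Acsl3 fell by 1.51 (SE 0.12, adjusted p = 1.91e-06) with GM-CSF and by 1.61 (SE 0.12, adjusted p = 1.60e-06) without it. Acss2, which makes acetyl-CoA from acetate, fell by 1.99 (SE 0.25, adjusted p = 8.70e-05) in RE against Mig and by 1.73 (SE 0.25, adjusted p = 0.000169) in RE+GM against Mig+GM cells. Scd1, a desaturase of fatty acids, fell by 1.23 (SE 0.13, adjusted p = 2.18e-05) and 1.04 (SE 0.13, adjusted p = 4.80e-05). With the mean of a gene's probes, Acss2 changed by -1.16 in RE against Mig and by -1.0 in RE+GM against Mig+GM cells, and Acsl3 by -0.98 and -0.93, all called. Fasn (-0.07, adjusted p = 0.679, and -0.18, adjusted p = 0.239) and Acly (-0.22, adjusted p = 0.311, and -0.24, adjusted p = 0.261) did not pass.

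Of 14 other uptake and lysosome genes 10 were tested, and none fell. In RE against Mig cells 6 rose and in RE+GM against Mig+GM cells 4 rose. Lamp1, a main membrane protein of lysosomes, had 12.62, 12.58 and 12.59 in RE+GM cells, against 11.47, 10.99 and 11.32 in Mig+GM cells. It rose by 1.33 (SE 0.17, adjusted p = 7.41e-05) with GM-CSF and by 1.11 (SE 0.17, adjusted p = 0.000381) without it. Lamp2, its relative, rose by 0.89 (adjusted p = 0.000520) and 0.95 (adjusted p = 0.000451), and Scarb2, a lysosomal membrane receptor, by 0.53 (adjusted p = 0.0107) and 0.64 (adjusted p = 0.00434). Under median scaling the rises without GM-CSF of Lamp1 (0.65, adjusted p = 0.0633), Lamp2 (0.51, adjusted p = 0.0562) and Scarb2 (0.31, adjusted p = 0.139) missed the threshold, and with the mean of its probes Lamp2 rose by 1.38 with GM-CSF.

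Of 16 other genes of LXR signalling, efflux and oxysterol synthesis 11 were tested. In each comparison 4 rose, while none fell in RE against Mig and 2 fell in RE+GM against Mig+GM cells. Ch25h, whose product 25-hydroxycholesterol is an oxysterol that restrains SREBP cleavage, was above background on 3 of 3 RE+GM, 3 of 3 RE, 1 of 3 Mig+GM and 0 of 3 Mig arrays. It had 10.08, 10.64 and 10.31 in RE+GM cells, against 6.49, 6.05 and 6.08 in Mig+GM cells (adjusted p = 8.73e-07); since 2 of the 3 Mig+GM arrays were not above background, no fold is given. In RE cells it had 7.68, 7.32 and 8.76, against 6.00, 5.99 and 6.02 in Mig cells, at least 3.20-fold higher, where the dim group was set to the lowest signal above background (adjusted p = 0.000304). The RE+GM arrays were the highest, the RE arrays lay between and the vector arrays were the lowest. Ch25h rose with GM-CSF in RE cells by 2.43 (SE 0.29, adjusted p = 0.00187). Lpcat3, an LXR target that remodels phospholipids, rose by 1.74 (SE 0.16, adjusted p = 6.10e-06) with GM-CSF and by 1.50 (SE 0.16, adjusted p = 2.83e-05) without it.

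Apoe, which carries exported cholesterol, had 7.53, 7.96 and 7.94 in RE+GM cells, against 6.43, 6.05 and 6.28 in Mig+GM cells. It had 6.22, 6.43 and 6.81 in RE cells, against 6.29, 6.55 and 6.32 in Mig cells. It was above background on 3 of 3 RE+GM, 2 of 3 RE, 2 of 3 Mig+GM and 3 of 3 Mig arrays. Only the RE+GM arrays stood apart among the 4 groups, with a rise of 1.55 (SE 0.17, adjusted p = 1.61e-05) against Mig+GM and of 1.32 (SE 0.17, adjusted p = 0.00192) against RE cells. In RE against Mig cells the difference of 0.10 did not pass (adjusted p = 0.693).

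The 5 tested of 10 other genes of SREBP processing were divided. In RE against Mig cells Mbtps1, the protease that opens SREBP cleavage, rose by 0.48 (adjusted p = 0.0474; with the replicate block 0.00107) and Rnf139, a ubiquitin ligase of the endoplasmic reticulum, fell by 0.45 (adjusted p = 0.00178). The Mbtps1 call was lost in 10 of 20 alternatives, among them median scaling (0.13, adjusted p = 0.666) and those without RE replicate 2 (adjusted p = 0.184), Mig replicate 3 (0.181), Mig replicate 1 (0.100), RE replicate 1 (0.0576), Mig+GM replicate 1 (0.0585) or any RE+GM array (0.0584 to 0.0633). In RE+GM against Mig+GM cells Rnf139 fell by 0.34 (adjusted p = 0.00818), Erlin2, an endoplasmic reticulum protein that binds SCAP and INSIG complexes, rose by 0.48 (adjusted p = 0.00310), and Mbtps1 did not pass (0.27, adjusted p = 0.254; with the replicate block 0.0247). With the mean of a gene's probes Rnf139 changed by -0.25 without GM-CSF and -0.22 with it, and Erlin2 by 0.29 with it, all called; at an offset of 16 Rnf139 changed by -0.70 and -0.54.

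**Figure D5:**
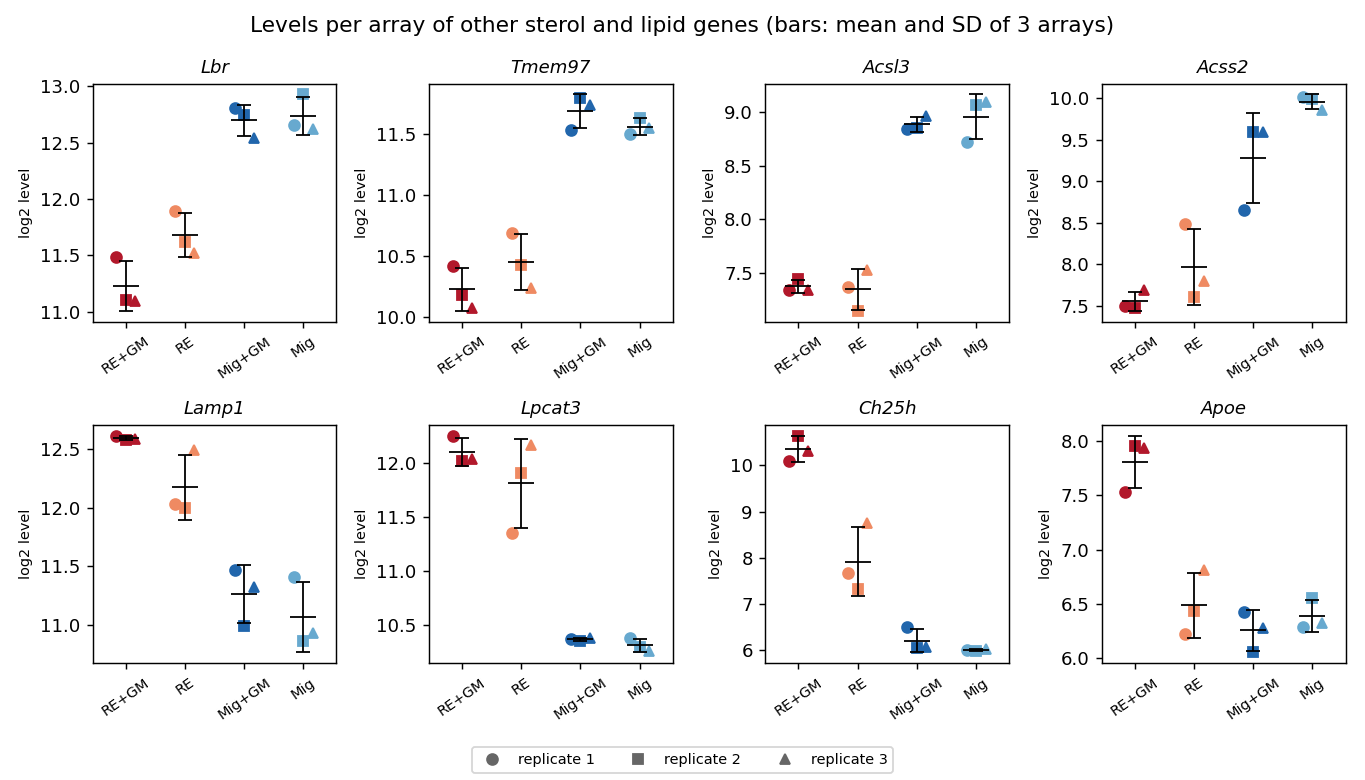
Log2 level of 8 further sterol and lipid genes on each array in RE+GM, RE, Mig+GM and Mig cells; points are arrays, with symbols for replicates 1 to 3, and bars show mean and SD (n = 3), on an axis of its own for each gene. Lbr, Tmem97, Acsl3 and Acss2 are lower with RUNX1-ETO, Lamp1, Lpcat3 and Ch25h are higher, and Apoe is high on the 3 RE+GM arrays (7.53 to 7.96).

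Other gene groups were counted in the same way, against the same shares of all units (20.3% lower and 17.7% higher in RE against Mig, 23.5% lower and 18.9% higher in RE+GM against Mig+GM cells). Of 19 tested S-phase and mitosis genes (24 listed), 19 fell in RE against Mig and 17 in RE+GM against Mig+GM cells (medians -1.03 and -1.10), and their mean log2 level was 9.30 to 9.37 in RE+GM, 9.46 to 9.57 in RE, 10.30 to 10.48 in Mig+GM and 10.45 to 10.57 in Mig cells. All 21 tested interferon-stimulated genes (24 listed) rose in both comparisons (medians 3.77 and 3.87), with a mean of 10.16 to 10.48 in RE+GM, 10.29 to 10.59 in RE, 6.78 to 6.96 in Mig+GM and 6.74 to 6.92 in Mig cells. Of 7 tested erythroid markers 3 fell and 1 rose in each comparison (mean 7.13 to 7.82 in RE+GM, 7.43 to 8.01 in RE, 7.95 to 8.59 in Mig+GM and 8.66 to 8.81 in Mig cells). Of 8 tested monocyte and macrophage markers 3 rose and 1 fell in RE against Mig, and 1 rose and 1 fell in RE+GM against Mig+GM cells (mean 8.11 to 8.45 in RE+GM, 8.27 to 8.57 in RE, 7.59 to 8.33 in Mig+GM and 7.22 to 8.50 in Mig cells). The part of these groups in the sterol results was not tested, and in bulk RNA fewer cells of a type and less RNA per cell cannot be told apart.

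Neutrophil markers (7 tested of 9) were highest on replicate 1 of both vector groups, with a mean of 6.52 to 7.75 in RE+GM, 6.31 to 7.93 in RE, 7.09 to 9.79 in Mig+GM and 6.90 to 9.41 in Mig cells. In each comparison 1 was called higher and 0 lower, but 5 of 7 changes were below zero. Their medians were -0.69 in RE against Mig and -1.06 in RE+GM against Mig+GM cells, against -0.04 and -0.05 over all units. The enzyme mean on replicate 1 of the vector groups was 9.93 in Mig+GM and 9.82 in Mig cells, against 9.92 and 9.81 on replicate 3. Replicate 1 also had the highest enzyme mean in RE+GM (9.39) and RE cells (9.14). Without Mig replicate 1, 14 of 24 members passed in RE against Mig cells. Without Mig+GM replicate 1, 13 of 24 passed in RE+GM against Mig+GM cells. With all arrays 15 passed in each comparison. The part of neutrophil content in the sterol results was not tested. Of 9 tested mast cell and basophil markers 4 rose and 2 fell in each comparison, and of 6 tested lymphoid markers 1 rose in each, near the share of all units that rose (17.7% and 18.9%). Megakaryocyte markers (6 tested of 8) gave 3 falls and no rise in RE against Mig and 2 of each in RE+GM against Mig+GM cells, and dendritic cell markers (7 tested of 9) gave no call and 1 rise. With the replicate block 2 neutrophil markers fell and 2 rose in RE+GM against Mig+GM cells, and 1 dendritic cell marker fell in each comparison. Of the 8 progenitor markers 2 rose in each comparison and 1 fell with GM-CSF; their part in the sterol results was not tested.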

How the data were processed

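The authors deposited bead signal intensity on a linear scale from 12 arrays in a table marked as not normalized, and a second table of intensity, normalized by a method not given in the sources used here. Both tables ranked the probes of an array alike. No detection p-values were used, and which software summarized the beads was not given in the sources used here. Detection p-values had been planned as the filter, and an estimated background took their place.

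Deposited intensity was corrected by normexp (offset 50, which makes fold changes of dim probes smaller), converted to log2 and brought to common quantiles with limma 3.58.1 in R 4.3.3. Each array's background was estimated from the lower flank of its signals, and 16262 of 25697 probes exceeded it, at a p of 0.05, on 3 or more of 12 arrays and were kept. The platform annotation gave 1 gene for 23978 probes, several for 0 and none for 1719; a gene was tested by its brightest kept probe. A group-means model over 12 arrays (lmFit, eBayes) gave two-sided tests with Benjamini-Hochberg adjustment over 12031 units in each comparison, at 0.05. Errors are model standard errors, and the number of arrays limits their precision. The fit was run on simulated data with independent noise on each array. That setting lacks the correlation of same-numbered arrays, so it could not show how the fit behaves under it.

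After removal of group means, same-numbered arrays correlated by 0.12 to 0.47 between RE and Mig and 0.22 to 0.43 between RE+GM and Mig+GM. The correlation was 0.61 to 0.69 between Mig+GM and Mig and 0.16 to 0.33 between RE+GM and RE. The main fit did not pair these arrays. An alternative fit used the replicate numbers, taken from the sample titles, as a block. It is given where it changes a call stated for a named gene.

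Members and lists were chosen with earlier results of these data known. Per-array values are given for up to 4 called members per role group with the largest change, and other lists are represented by up to 3 genes with the smallest adjusted p; Coq2, Fasn and Acly were named after their values were seen. Alternatives changed the offset, background correction, scaling, table, filter, probe rule, threshold, block and arrays used. 0 columns of samples were left unused.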

Additional observations from a re-analysis of the deposited data

Results flagged for a closer look

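The effect of GM-CSF on Apoe differed between cells with and without RUNX1-ETO by the test of the difference itself. The change with GM-CSF was 1.32 on the log2 scale in RE+GM against RE cells and -0.13 in Mig+GM against Mig cells, a difference of 1.45 (SE 0.24, limma adjusted p = 0.0407; with the replicate block 0.0312), where 0.266% of all units were called. The adjusted p ran from 0.00352 to 0.144 over 20 alternatives and missed the threshold in 11, among them median scaling (0.0571), the authors' normalization (0.0535) and those without RE+GM replicate 2 (0.129) or 3 (0.0854), RE replicate 1 (0.0617) or 2 (0.119), Mig+GM replicate 2 (0.0934) or 3 (0.0856), or Mig replicate 1 (0.0935), 2 (0.144) or 3 (0.0687). Its size stayed between 1.32 and 2.03. Apoe was above background on 3 of 3 RE+GM, 2 of 3 RE, 2 of 3 Mig+GM and 3 of 3 Mig arrays, so that 3 of the 4 groups lay near it.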

How the results depend on the processing

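Of 30 calls of single sterol genes, 21 kept their direction and their side of the threshold under each of 20 alternatives, 9 missed the threshold under at least 1, and 0 reversed; of 31 calls of named genes in the other lists, 24 kept both, 7 missed it somewhere and 0 reversed. The number of members called in RE against Mig cells was 15, ran from 13 to 18 under settings other than leaving out an array and from 13 to 17 when each array was left out. In RE+GM against Mig+GM cells it was 15, with 12 to 18 and 13 to 17. In RE+GM against RE cells it was 0, but 2 with the replicate block (Cyp51 and Hsd17b7) and 0 to 1 when each array was left out, 1 being Cyp51 without RE replicate 3; the cause was not tested. In Mig+GM against Mig cells and for the difference between the RUNX1-ETO effects it was 0 under all 21 settings run. Over all units, 272 were called in RE+GM against RE cells, against 703 with the block, 911 without RE replicate 3 and 118 to 320 without another array, and 32 for the difference of effects, against 74 with the block, 182 without RE replicate 3, 8 to 24 without another array, 12 under median scaling, 18 at an offset of 16 and 21 in the authors' table. At an adjusted p under 0.01 the members called were 13 in RE against Mig and 12 in RE+GM against Mig+GM cells. Median scaling left 97.5% of calls higher in RE+GM against RE cells, against 83.8%. The replicate block changed no other call of a member than those given above. Signal limits Abca1 and Nr1h3, which lay at or near background, Ch25h in both vector groups, and Apoe outside RE+GM cells.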
